A study of Mus musculus with 6 samples.

Results

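Of the 56605 probes on a mouse expression array, 6036 are named by an accession made of the letters AK and digits. They stand for 5897 full-length cDNA clones, 139 of them covered by 2 probes and none by more. The probes were taken by this form of the name alone, with control spots left out, and not by their measured values. The set itself was chosen with earlier results of these data known. The clones were measured in C8D1A cells, a cloned mouse astrocyte line, on 3 arrays of untreated cells (control) and 3 arrays of cells treated with pulsed radiofrequency (PRF), in which high-frequency current is applied in short bursts. All 6 samples share 1 line, which is itself a clone, and spent the last 24 h before the experiment without serum. No genetic change is named for either group, and the sources used here give neither the settings of the stimulation nor the time from it to harvest. The 3 arrays of a group come from 3 independent experiments, so p-values below measure the spread between those experiments.

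Accessions with the AK prefix were assigned largely to full-length cDNA clones from large sequencing projects, in mouse above all the RIKEN collection that the FANTOM consortium annotated. Such a clone is a copy of 1 RNA molecule made into DNA, and the collection is known for holding many transcripts without a clear reading frame, antisense transcripts, unspliced transcripts and rare variants beside copies of protein-coding messages. Curated messenger RNA entries of the RefSeq collection carry the prefix NM_, and the 29638 probes with such a name were the set of comparison.

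None of the 5897 AK accessions was found in the gene table used here (RefSeq, GRCm38.p6), whose transcripts carry RefSeq accessions. The lack of a match does not say that a clone lies outside the annotated genes. The clones are therefore called by accession, and their genes, positions and sequences were not analysed here. An AK clone can overlap an annotated gene or another clone, so AK probes are not independent of one another or of the NM_ probes.

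A level below is the log2 of the background-corrected signal minus the 75th percentile of that signal on the same array, so a level of 0 lies at that percentile. The percentile ranged over 597 to 674 intensity units in control and 544 to 634 in PRF samples. A probe is called well above background where the scanner software set that flag. All 6 arrays lay on 1 slide and were scanned once, in 2 array rows. Row 1 held control replicates 1 and 3 and PRF replicate 2, and row 2 held control replicate 2 and PRF replicates 1 and 3. Of 11 astrocyte markers, 9 were well above background on every control array, among them Gfap, the glial intermediate filament, Aqp4, the astrocyte water channel, and Aldh1l1, a folate enzyme. Slc1a3, a glutamate transporter, and Gja1, a gap junction protein, were well above background on no array.

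AK clones were dim in these cells. The median control level over all AK probes was -5.29, with 10% of probes below -7.97 and 10% above -0.41, against a median of -1.98 for NM_ probes. Only 468 AK probes (7.75%) had a control level of 0 or more, against 11012 NM_ probes (37.2%). The 2 sets therefore sit at different heights on the array, and the main shares below are also given for NM_ probes weighted to the control levels of the AK probes, in bins of 1 log2 unit.

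More AK clones were detected in PRF cells than in control cells. The number of AK probes well above background was 3256, 3150 and 3154 on control replicates 1 to 3 and 3454, 3410 and 3318 on PRF replicates 1 to 3, and the groups did not overlap. As a share of all AK probes this was 52.8% ± 0.995 in control cells and 56.2% ± 1.15 in PRF cells (SD, n = 3 each), a difference of 3.43 percentage points. An exact two-sided permutation test over the arrays gave p = 0.1, the smallest value that 3 arrays against 3 can give. NM_ probes went from 68.6% ± 0.673 to 71.3% ± 0.761, a difference of 2.73 points.

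Matched on control level, NM_ probes were detected a little more often than AK probes in PRF cells. On the control arrays the match itself brings the shares together, so their likeness there is no result. The AK share minus the matched NM_ share was -0.019, 0.125 and 0.0286 points on the control arrays and -0.763, -0.609 and -0.708 points on the PRF arrays. The PRF arrays lay below all control arrays in this difference, whose mean moved by -0.738 points (exact two-sided permutation p = 0.1, n = 3 each). With the scanner software's weaker flag, a signal positive and significant over background, the difference was 0.185 points instead (exact p = 0.4), so its direction rests on the flag. Fewer cells that express a clone and less of its RNA per cell cannot be told apart in such bulk samples.

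**Figure D1:**
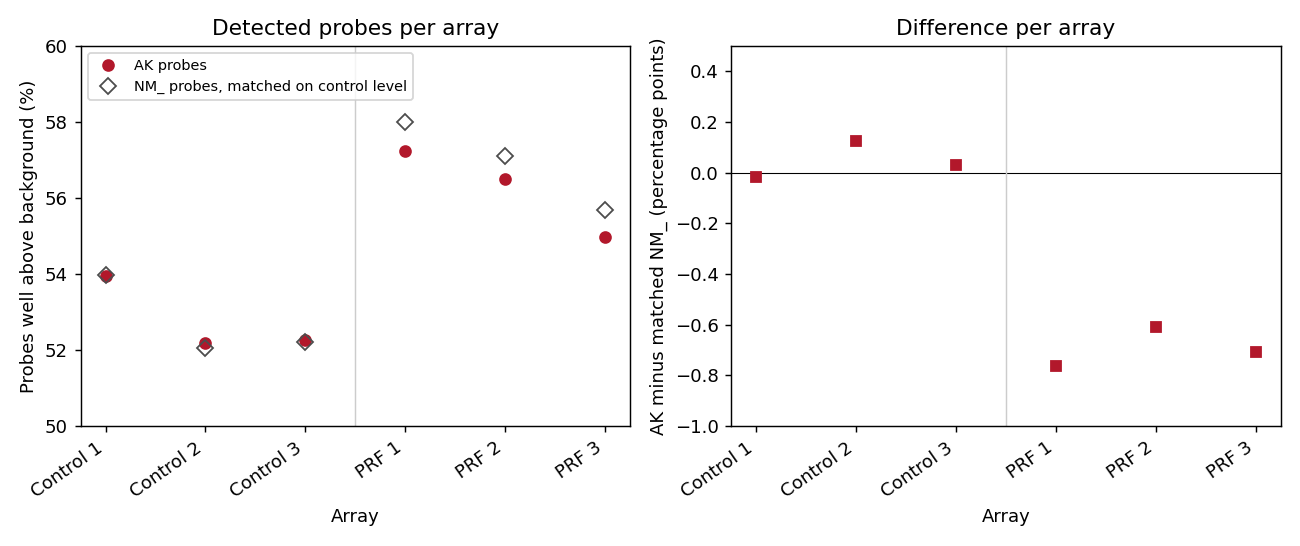
Share of probes well above background on each of the 6 arrays (left, in percent, on an axis that starts at 50%), for AK probes (filled circles) and for NM_ probes weighted to the control levels of the AK probes (open diamonds), and the AK share minus the matched NM_ share (right, in percentage points). The AK share lies between 52.2% and 53.9% on control arrays and between 55.0% and 57.2% on PRF arrays, and the difference from matched NM_ probes lies between -0.019 and 0.125 points and between -0.763 and -0.609 points.

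Most AK clones kept one state on all arrays. Those above background on no array numbered 2285 (37.9%), and those above it on all 6 numbered 2909 (48.2%). A clean switch on, from no control array to all 3 PRF arrays, was seen for 157 AK probes (2.60%). A clean switch off, from all 3 control arrays to no PRF array, was seen for 24 (0.398%). Among level-matched NM_ probes the switch on had a share of 2.56%, near that of AK probes, and the switch off a share of 0.105%. Of the 2667 AK probes that no control array had above background, 5.89% were so on all PRF arrays, against 5.90% of NM_ probes at the same control levels. Of the 2418 AK probes that no PRF array had above background, 0.993% were so on all control arrays, against 0.255% of 7841 NM_ probes. These shares are not matched on level. They were 0.656% for Ensembl transcripts, 0.376% for probes named by a chromosome range and 0.316% for predicted noncoding entries (XR_). In absolute numbers 24 AK probes switched off, beside 20 of the much larger set of NM_ probes.

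To enter the test of levels a probe had to be well above background throughout 1 of the groups or both. By this filter 3307 AK probes (54.8%) were tested. A clone near background in control cells could pass by its brightness in PRF cells alone, so the lowest control levels hold rises by construction. Models were fitted with limma over all 34838 tested probes, with Benjamini-Hochberg adjustment over all of them and a threshold of 0.05.

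Of the 3307 tested AK probes, 913 (27.6%) were called higher in PRF cells, where 18.4% of all tested probes were. A further 548 AK probes (16.6%) were called lower, where 12.7% of all tested probes were. NM_ probes were called higher in 14.3% and lower in 11.8% of 20741 tested. Calls of at least 2-fold were more one-sided. They numbered 421 AK probes higher (12.7%, against 8.35% of all probes) and 68 lower (2.06%, against 0.746% of all probes). Without a model, the 3 control levels and the 3 PRF levels did not overlap for 1113 AK probes with PRF higher (33.7%, against 27.7% of all probes) and 787 with PRF lower (23.8%, against 22.5%).

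The balance of rises and falls depended on how the arrays were scaled. Rises made up 62.5% of AK calls with the 75th percentile and 56.4% with the median of the tested probes. They made up 43.8% with quantile normalization (727 higher, 931 lower), 45.6% with no scaling (629 and 751) and 38.5% with scaling to the spike-in spots (684 and 1093). This turn was seen over the whole array. Of all tested probes, 14.8% were higher and 21.0% lower with quantile normalization. The shares were 11.8% and 18.9% with no scaling and 13.0% and 32.5% with spike-in scaling. No scaling and spike-in scaling also moved the median change of all tested probes, to -0.12 and -0.18. Calls of at least 2-fold stayed mostly rises, with 355 higher and 175 lower under quantile normalization and 366 and 143 under spike-in scaling. Their number moved with the background correction and the filter, to 148 higher and 3 lower with normexp and to 225 and 45 among probes well above background on all 6 arrays. In the main fit 7.70% of AK probes above background on all 6 arrays were at least 2-fold higher and 1.55% lower. The NM_ shares, not matched on level, were 3.09% and 0.296%. For the other settings no share of all tested probes at 2-fold is given, so those counts show only the balance within AK probes. Of the 421, 148 were above background on no control array and 49 on 1 or 2, so the filter admitted them through PRF cells alone. The median change of the tested AK probes was 0.04 on the log2 scale, beside 0.02 for all tested probes, and the middle 80% of AK changes ran from -0.55 to 1.34. The array row held both groups, and with it as a block 784 AK probes were higher and 393 lower, beside 15.7% and 8.76% of all tested probes. Within row 1 alone 390 AK probes were higher and 117 lower, beside 7.67% and 1.54% of all tested probes. Within row 2 alone 19 were higher and none lower by limma, beside 0.462% and 0.00287% of all tested probes. Row 2 held 1 control array, and the median change there was 0.04 for AK probes, beside 0.02 for all tested probes.

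The rows share no array, so each gives its own measure of the change. The filter used all 6 arrays, so only the 2909 AK probes well above background on all of them are compared here. The 2 within-row changes had the same sign for 2388 of these (82.1%). Of 247 called higher within row 1, 245 were also higher in row 2, with median changes of 1.35 and 1.37. All 92 called lower within row 1 were also lower in row 2, with median changes of -1.06 and -0.85. Pearson's r between the 2 sets of changes was 0.91 over 2909 probes, as a description, since the arrays of a row share slide position and the probes share transcripts.

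Against NM_ probes of the same control level, AK probes were called more often in both directions. The matched NM_ share was 22.2% higher and 10.2% lower, which leaves the AK shares 5.44 and 6.42 points above it. Matching on the mean of all 6 arrays gave gaps of 5.83 and 5.72 points, and matching on the PRF arrays 7.40 and 4.66 points. The median change was 0.0362 for AK probes and 0.0431 for matched NM_ probes. The residual SD of the fit was 0.20 for AK and 0.18 for NM_ probes (medians) at control levels of -4 to -3, and 0.12 and 0.09 at levels of 0 to 1. Over probes well above background on all 6 arrays, which the filter did not admit through 1 group, 23.9% of 2909 AK probes were higher and 17.5% lower, against 17.0% and 11.1% of level-matched NM_ probes. These are counts over probes that share transcripts and carry no test. Other names gave these shares at the same control levels: predicted noncoding entries (XR_) 25.8% higher and 15.2% lower, Ensembl transcripts 22.4% and 16.0%, and probes named by a chromosome range 27.0% and 13.1%. Matched on all 6 arrays they were 28.1% and 14.3%, 21.0% and 16.5%, and 27.7% and 12.5%. The rises of Ensembl transcripts thus lay by those of NM_ probes, and their falls by those of AK probes.

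The gap in rises opened with the level of the clone. Below a control level of -4, 383 of 948 tested AK probes were higher (40.4%), against 43.2% of NM_ probes. Between -4 and 0 it was 417 of 1891 (22.1%), against 15.0%. At 0 and above it was 113 of 468 (24.1%), against 6.50% of 11012 NM_ probes. The falls behaved differently, since AK probes were called lower more often in all 3 ranges, at 7.49%, 19.9% and 21.4%, against 2.96%, 13.3% and 13.2%. The ranges are wide, and levels within them were not matched. At control levels of 0 to 1, 25.0% of AK and 17.7% of NM_ probes were lower. At 2 to 3 the order turned, with 11.5% of 52 AK and 14.7% of NM_ probes lower, and in the other bins above 0 it held. At 0 and above the share of rises stayed higher in AK than in NM_ probes under the other scalings, at 25.0% against 6.95% with quantile normalization, 21.6% against 4.96% with the median, 10.5% against 2.15% with no scaling and 14.1% against 2.61% with spike-in scaling. With any 1 array left out it lay between 16.2% and 23.5% for AK probes and between 3.70% and 5.39% for NM_ probes. The excess of falls in that range did not hold under spike-in scaling, where 40.4% of AK and 40.1% of NM_ probes were lower. The borders of these ranges were chosen after the values were seen.

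**Figure D2:**
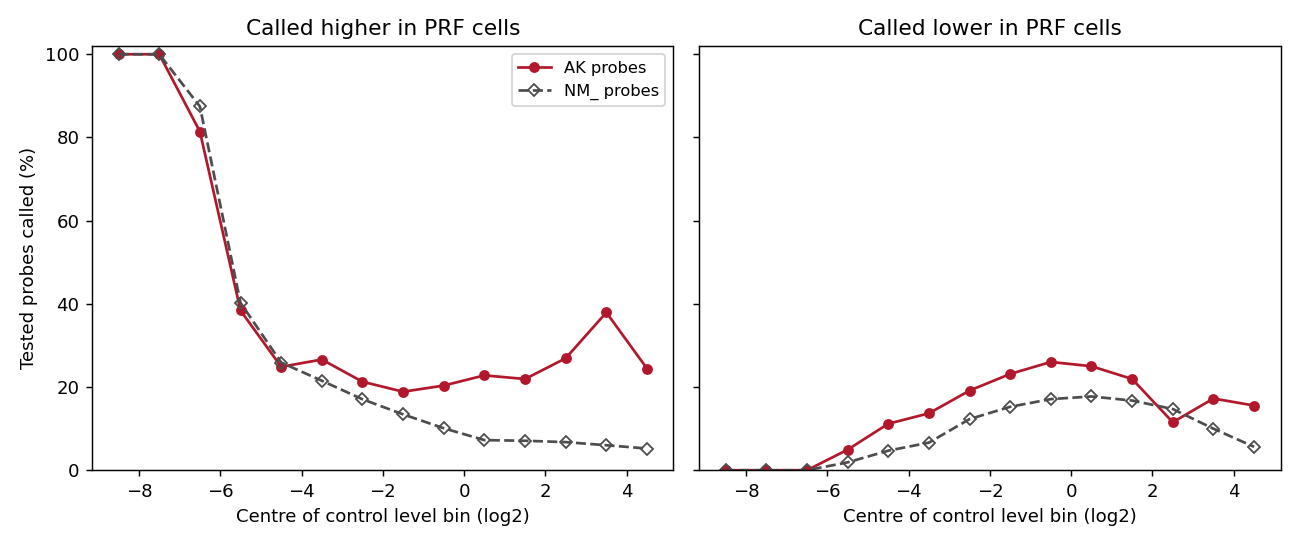
Percent of tested probes called higher (left) and lower (right) in PRF cells by limma, in bins of 1 log2 unit of mean control level, for AK probes (filled circles) and NM_ probes (open diamonds). Both sets start at 100% called higher in the lowest bins, where only probes bright in PRF cells were tested, and in the bin from 0 to 1 the AK share is 22.8% against 7.24%.

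The shares varied little with the accession number, which follows the order in which clones were registered. Clones numbered up to AK030000 were called higher in 29.0% and lower in 17.7% of 606 tested probes. The next block, up to AK060000, gave 27.3% and 17.1% of 1172, and the block up to AK100000 gave 27.6% and 16.7% of 569. The latest clones, above AK100000, gave 27.1% and 15.2% of 960. These latest clones were also detected most often, on 60.6% ± 1.30 of control and 64.1% ± 1.15 of PRF readings (SD, n = 3 arrays each, exact two-sided permutation p = 0.1), against 47.1% ± 0.789 and 51.8% ± 1.74 for the earliest.

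The shares differed more between probe series, taken from the prefix of the probe's identifier, than with the clone's number. AK probes of the A_66 series were called higher in 33.5% and lower in 11.9%, and those of the A_55 series in 28.7% and 16.9%. The A_51 series gave 26.25% and 15.4%, and the A_52 series 22.9% and 17.7%. In the A_65 series the order was turned, with 16.4% higher and 25.4% lower, and that series was detected on 86.8% ± 0.266 of control readings (SD, n = 3 arrays). NM_ probes of the A_66, A_55 and A_65 series were higher in 13.9%, 15.1% and 9.94% and lower in 10.5%, 12.5% and 8.65%. The A_66, A_55 and A_65 series also differed in level, with median control levels of tested AK probes of -3.43, -2.48 and -1.39. The part of the probe series and of this level in the AK results was not tested.

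**Figure D3:**
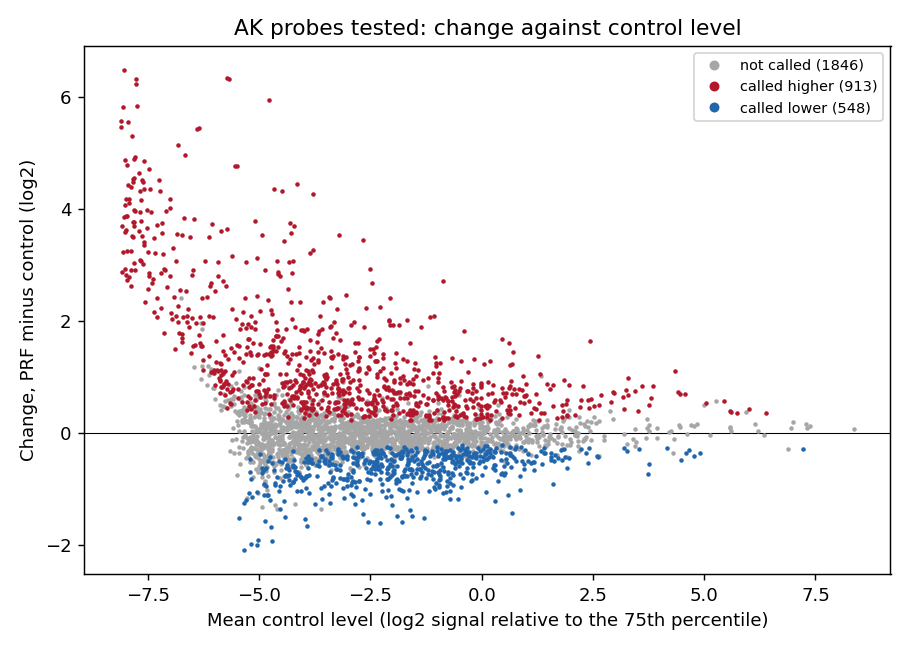
Change of each of the 3307 tested AK probes (PRF minus control, log2) against its mean control level (log2 signal relative to the 75th percentile of the array), with the 913 probes called higher in red, the 548 called lower in blue and the others in grey. Rises reach past 6 log2 units at control levels below -5 and shrink towards brighter clones, while falls stay within about 2 log2 units.

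Among clones measured on all 6 arrays the largest rises were about 20-fold. The probe with the highest mean level stood for each accession, and the 10 largest rises and 10 largest falls are named among 686 rises and 500 falls that passed the test without overlap. By these probes AK032692 had the largest rise, from levels of -4.37, -4.66 and -4.95 on control replicates 1 to 3 to 0.37, -0.40 and -0.88 on PRF replicates 1 to 3. It was 20.5-fold higher in PRF cells (log2 change 4.36, SE 0.32, limma adjusted p = 0.000339). The lowest PRF array lay over 3 log2 units above the highest control array.

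AK032665 followed at 19.9-fold, from -4.73, -4.63 and -4.13 to 0.37, -0.26 and -0.67 (SE 0.29, limma adjusted p = 0.000238). AK002748 rose 19.2-fold, from -3.51, -3.84 and -4.02 to 0.77, 0.56 and 0.09 (SE 0.21, adjusted p = 8.58e-05). Its other probe rose by 4.45 log2 units (SE 0.29), more than the probe of AK032692. The next 5 accessions were AK006404, AK131846, AK033028, AK160170 and AK047578, which were between 11.6-fold and 13.8-fold higher.

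The last named rises came from clones of middle control level. AK085973 went from -3.01, -3.33 and -3.26 to 0.73, 0.34 and -0.10, which is 11.5-fold. AK037391 went from -2.53, -2.83 and -2.67 to 1.11, 0.87 and 0.31, which is 10.8-fold (SE 0.21, limma adjusted p = 0.000172). Both ended near or above the 75th percentile of the array on all 3 PRF arrays. Of the 10 named rises, 6 were measured by probes of the A_66 series.

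The size of these folds depended on the background correction. With normexp on the raw signals in place of the software's correction, the 10 named rises were between 1.86 and 3.05 log2 units, against 3.44 to 4.36, and all 10 were still called. They were also called under each other scaling, with each array left out in turn, with row as a block and within row 1. Within row 2, with 3 arrays, none of the 10 was called, at changes of 3.43 to 4.48.

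The named falls were smaller, and all lay between 2.46-fold and 3.06-fold. AK028706 went from -2.39, -2.35 and -2.10 on the control arrays to -4.44, -3.75 and -3.48 on the PRF arrays, a change of -1.61 (SE 0.24, limma adjusted p = 0.00462). AK042482 went from -1.93, -1.90 and -1.51 to -3.77, -3.58 and -2.81, also a change of -1.61 (adjusted p = 0.00588). AK039530 went from -2.51, -2.72 and -2.41 to -4.51, -4.06 and -3.87, a change of -1.60 (SE 0.18, adjusted p = 0.0014). In all 3 every PRF array lay below every control array.

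AK014629 was the brightest of the named falls, at 0.61, 0.59 and 0.86 in control cells and -1.16, -0.83 and -0.27 in PRF cells (change -1.44, SE 0.22, limma adjusted p = 0.00501). AK141640 fell by 1.30 with an adjusted p of 0.00177. AK009949, AK078743, AK053566 and AK087635 changed by -1.52, -1.49, -1.46 and -1.38. AK038608 fell by 1.49 with an adjusted p of 0.0154, and missed the threshold without control replicate 3 and without PRF replicate 2 (adjusted p = 0.055 in both). With normexp the 10 falls were between -1.27 and -0.65 and all remained called. Within row 1, 8 of the 10 were called, and within row 2 none was, at changes of -1.61 to -1.31.

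**Figure D4:**
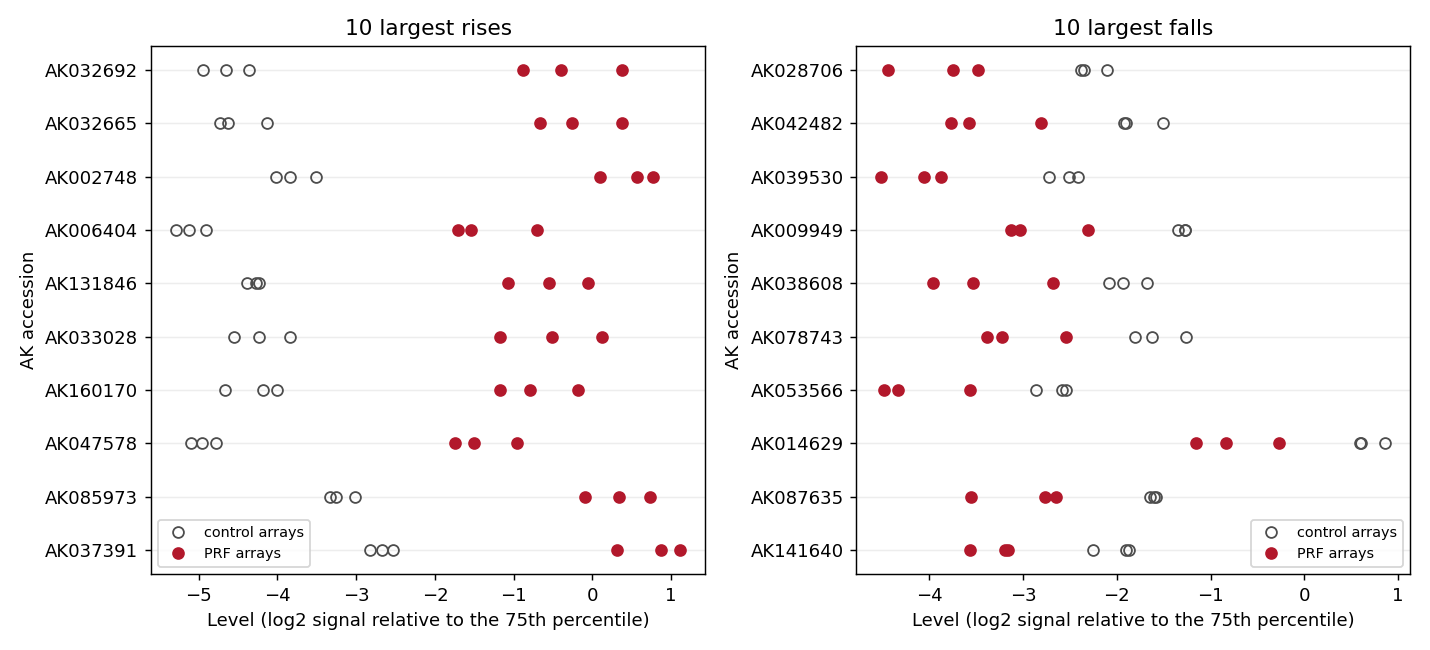
Levels of the 10 AK accessions with the largest rises (left) and the 10 with the largest falls (right), on the 3 control arrays (open circles) and the 3 PRF arrays (filled circles), as log2 signal relative to the 75th percentile of the array. In each accession the groups are apart, from AK032692 at -4.95 to -4.37 against -0.88 to 0.37 down to AK141640 at -2.25 to -1.87 against -3.56 to -3.17.

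PRF replicate 1 stood farthest from the controls in most of these clones. It was the highest PRF array in all 10 named rises and the lowest in 9 of the 10 named falls, while PRF replicate 3 was the nearest to the controls in all 20. Over all calls PRF replicate 1 was farthest in 635 of 913 AK rises (69.6%) and 354 of 548 falls (64.6%). PRF replicate 3 was nearest in 70.9% and 65.5%. NM_ probes had the same order, with PRF replicate 1 farthest in 61.6% of rises and 60.5% of falls. Without PRF replicate 1 the fit called 734 AK probes higher and 381 lower, beside 14.4% and 7.59% of all tested probes. Without PRF replicate 3 it called 886 and 571, beside 17.8% and 12.9% of all tested probes.

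Clones that no control array detected give only a lower bound of their rise. The bound sets the PRF mean against the dimmest signal that counts as well above background on the control arrays, or the probe's own signal where that is higher. It holds for the software's background correction only. Over 155 accessions the bound had a median of 2.98-fold, passed 2-fold in 112 and 10-fold in 10. AK133651 was at least 29.1-fold higher, with control levels of -6.94, -6.33 and -5.80 that were not well above background and PRF levels of -0.31, -0.86 and -1.56. AK142648 was at least 27.8-fold higher, with -6.10, -6.33 and -6.78 against -0.43, -0.97 and -1.52. Both ended within 2 log2 units of the 75th percentile of the array.

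AK087377, AK020890, AK042795 and AK078618 were at least 20.2-fold, 18.7-fold, 18.6-fold and 17.1-fold higher. No p is given for the 6, since they entered the test only through their PRF levels. With normexp the fitted changes of the 6 were between 1.82 and 2.69 log2 units, in each clone less than its bound. The size of these bounds thus rests on the background correction. AK042795 had control levels of -8.14, -8.04 and -7.94, at the floor of the array, and PRF levels of -0.73, -1.78 and -2.16.

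Some large rises fell between these rules, since only 1 or 2 control arrays measured the clone. They are named here after their values were seen, and their direction is no test result, since they entered the fit through the PRF arrays alone. AK132182 was well above background on 1 control array, with control levels of -5.54, -6.00 and -5.64 and PRF levels of 1.25, 0.61 and -0.03. Its fitted change was 6.34 (SE 0.32), with 2 of the 3 control values not well above background. AK136697 had nearly the same levels, -5.42, -6.02 and -5.59 against 1.27, 0.50 and 0.18, a change of 6.32 (SE 0.30).

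AK038159, above background on 2 control arrays, went from -4.21, -4.70 and -5.44 to 1.55, 1.19 and 0.74, a change of 5.94 (SE 0.34). AK086288 and AK141770 each rose by 4.77. With normexp the changes of these 5 accessions were smaller, down to 3.62 for AK132182, 3.96 for AK038159 and 2.41 for AK141770.

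Clones no longer above background in PRF cells moved less. All 24 bounds of fall were above 1-fold, and the 4 largest were AK037047 (at least 1.97-fold lower), AK086422 (1.95-fold), AK016096 (1.94-fold) and AK086347 (1.77-fold). AK037047 went from -4.77, -4.71 and -4.67 to -6.21, -7.65 and -6.10. All 4 missed the threshold with normexp, at limma adjusted p of 0.058, 0.089, 0.123 and 0.166, so these calls rest on the background correction. Outside this rule and chosen after their values were seen, AK040814 and AK053189 were above background on all control arrays and 2 PRF arrays and had fitted changes of -1.67 and -1.54. With normexp these were -0.34 and -0.30.

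The 5 brightest AK clones did not pass the test. AK140265, the brightest, was at 8.38, 8.30 and 8.41 in control cells and at 8.38, 8.55 and 8.36 in PRF cells, and the groups overlapped (limma adjusted p = 0.551). AK203298, AK012052, AK139658 and AK136409 followed, with levels near 7 and adjusted p between 0.128 and 0.486. The sign of the change turned under quantile, no or spike-in scaling in AK140265, AK203298 and AK139658 and under spike-in scaling in AK012052. AK012052 was spotted 10 times on each array, and its change of 0.15 had an SE of 0.08. The other clone spotted 10 times, AK133410, went from 0.43, 0.62 and 0.63 to -0.21, 0.29 and -0.02, a change of -0.54 (SE 0.14, adjusted p = 0.0296).

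At control levels of 0 and above the rises reached about 3-fold. These clones were also picked after their values were seen. AK051661 went from 0.41, 0.59 and 0.39 to 2.41, 2.13 and 1.87, which is 3.18-fold higher (SE 0.15, limma adjusted p = 0.000605). AK148702 went from 2.61, 2.70 and 1.99 to 4.62, 3.62 and 3.94, which is 3.09-fold (adjusted p = 0.00914). AK044623, AK047130 and AK017183 were 3.05-fold, 2.71-fold and 2.60-fold higher.

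In the same range of levels AK037504 went from 0.23, 0.35 and 0.30 to -1.28, -0.87 and -0.63, which is 2.34-fold lower (adjusted p = 0.00287). AK137377, AK163667 and AK048763 were 2.16-fold, 2.09-fold and 2.03-fold lower. The groups did not overlap in any of them. These 9 and AK014629 were called under each scaling, with a highest adjusted p of 0.0154, and with each array left out, with a highest adjusted p of 0.0373.

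For 41 accessions 2 probes were tested, which gives a second reading of the same clone in the same samples. The 2 changes had the same sign in 35 of 41, with a median absolute difference of 0.18 log2 units. Both probes were called higher in 9 accessions, both lower in 6 and neither in 14. One probe alone was called in 11, of which 8 were lower and 3 higher. AK141572 is an example of like readings, with rises of 1.64 (SE 0.09) and 1.61 (SE 0.15). Pearson's r was 0.92 over the 41 accessions, whose paired probes share arrays and clone.

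AK035253 was the only accession with calls in opposite directions. One probe went from -0.73, -0.59 and -0.92 to -1.56, -1.27 and -1.50, a change of -0.70 (SE 0.12, limma adjusted p = 0.00681). The other went from 2.90, 2.92 and 2.91 to 3.60, 3.46 and 3.32, a change of 0.55 (SE 0.08, adjusted p = 0.00461). Neither probe's groups overlapped. The rise missed the threshold with no scaling (adjusted p = 0.0606). Both calls were lost within row 1 (0.175 for the fall and 0.0849 for the rise) and within row 2 (0.0967 and 0.277), while the directions stayed.

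AK035229 differed most, with a dim probe at -0.11 (SE 0.16, limma adjusted p = 0.639) and a brighter one at 1.36 (SE 0.12, adjusted p = 0.000551). AK085995 came next after these, with 0.46 (SE 0.39, adjusted p = 0.408) on a dim probe and -0.36 (SE 0.10, adjusted p = 0.0326) on a bright one. That fall missed the threshold in 5 of the 6 fits with 1 array left out, with row as a block and with no filter. Which transcripts these probes read was not analysed here.

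**Figure D5:**
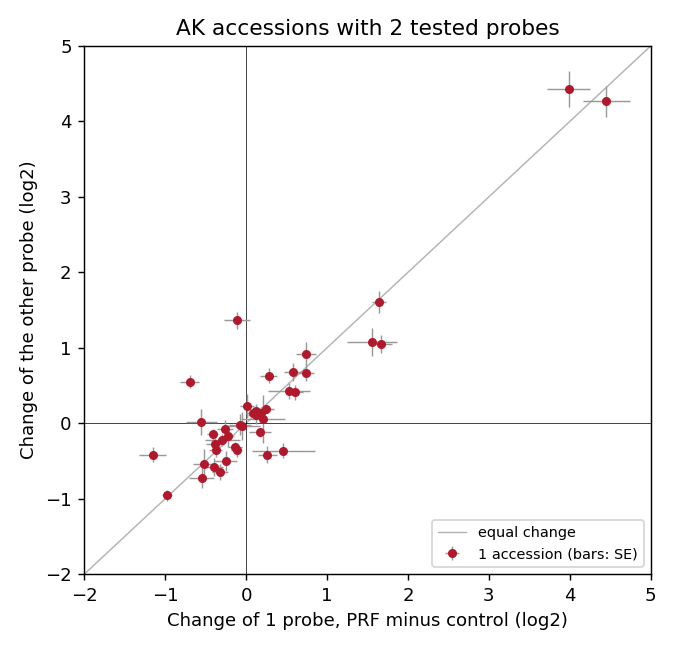
Change (PRF minus control, log2) of 1 probe against that of the other for the 41 AK accessions with 2 tested probes, with bars for the standard errors of the fit and a grey line for equal change. Of the 41 points 35 lie where both changes have the same sign, and AK035253 lies apart at -0.70 and 0.55.

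Markers of other cell types moved in the same comparison. Of 4 microglial markers 2 were well above background, and the summed signal of the list lay between 8.63 and 9.05 times the 75th percentile on control arrays and between 13.0 and 17.7 times on PRF arrays, with Cx3cr1 and Aif1 above background on no array. The fibroblast list went from between 0.284 and 0.374 to between 0.532 and 0.548, with 2 of 4 genes called higher, Col1a1 and Col1a2. Col1a2 was well above background on only 1 control array, so it entered the test through PRF cells alone. Pdgfra moved the other way, by -0.67 (limma adjusted p = 0.0706), and was above background on all control arrays but 1 PRF array. The oligodendrocyte list went from between 62.8 and 69.0 to between 72.7 and 79.1, with 1 of 4 called higher and 1 lower. The astrocyte list went from between 160 and 172 to between 183 and 189. That sum came mostly from its brightest genes, Vim and S100b, at mean control levels of 6.72 and 5.89. They were at 6.88 and 6.02 in PRF cells and were not called (limma adjusted p = 0.119 and 0.185). The 2 of 11 called higher were Apoe and Clu, both apolipoproteins that astrocytes secrete. Their mean levels were lower, at 0.09 and -2.57 in control and 1.17 and -2.03 in PRF cells. The summed signals of the neuronal and endothelial lists overlapped between the groups. Of 5 neuronal genes 1 was called higher, Snap25 (change 0.97, limma adjusted p = 0.0127), and 0 lower. The part of these markers in the AK results was not tested.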

How the data were processed

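RNA of 3 control and 3 PRF samples was labelled with Cy3 and hybridised to 1-colour Agilent arrays. Per the file headers, the deposited intensity values came from the scanner images through Agilent Feature Extraction (version 10.7.3.1), which corrected each spot for background and set detection flags. They were not normalized between arrays. The headers name an mm9 design. The sources used here give neither the authors' normalization nor their test.

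Control spots and spots with outlier flags were left out (2 AK values of control replicate 3), spots of a probe were averaged, and the 75th percentile of each array was subtracted from log2 signals. Their number limits the precision: 6 arrays. Fits used limma 3.58.1 in R 4.3.3 (lmFit and eBayes, group as the only term). Exact permutation tests went through all splits of the arrays in Python 3.11.15. The fit and the matching were tested on simulated data. 1 tested AK probe lacks a value on 1 array and was fitted on the others.

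Named clones are, with 1 probe an accession, the 10 largest rises and falls called, measured on all 6 arrays and without overlap, the 6 largest bounds of rise, 4 of fall, the 5 highest levels and the 3 accessions with the widest gap between 2 probes. The probe set, this rule and the marker lists were chosen with earlier results of these data known. No AK sequence is printed, as the tables used here hold none.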

Additional observations from a re-analysis of the deposited data

How the results depend on the processing

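The number of AK probes called higher stayed within 1.5 times of 913 under the 4 other scalings, normexp, both other filters, the series table, the plain threshold and each array left out (697 to 886). The number called lower was less stable. It was 931 with quantile normalization, 1093 with spike-in scaling, 356 with no filter, 283 at an unadjusted p below 0.05 with a 1.5-fold change, and 336 to 571 with 1 array left out. The share of all tested probes called lower moved as well. It was 12.7% in the main fit, 21.0% with quantile normalization, 32.5% with spike-in scaling and 4.96% with no filter. Row 1 alone gave 390 higher and 117 lower, and row 2 alone 19 and 0, on 3 arrays each.

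The excess of AK over level-matched NM_ probes called higher was 3.60 points with no scaling, 2.10 with no filter, 1.23 within row 1, -0.14 within row 2 and 7.40 matched on the PRF arrays, and 3.31 to 4.96 with 1 array left out. The excess called lower was 4.47 with normexp, 2.40 with no filter, 4.71 with row as a block, 2.26 within row 1, 0 within row 2 and 4.66 matched on the PRF arrays, and 3.27 to 6.85 with 1 array left out. The difference in median change was -0.0069, and 0.017 within row 1, -0.027 within row 2, 0.014 matched on the PRF arrays and -0.030 to 0.015 with 1 array left out, so it has no settled sign. The detection difference turned to 0.185 points with the weaker flag. The cause was not tested.

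Whether same-numbered samples form pairs is not known, although same-numbered control and PRF arrays shared an array column. Deviations of same-numbered arrays correlated at 0.145, -0.0838 and 0.0458 for numbers 1 to 3. Other combinations of a control and a PRF array lay between -0.174 and 0.132. So few arrays cannot settle the pairing, and the main fit treated the samples as unpaired. With the replicate number as a block 847 AK probes were called higher and 450 lower, and the excess called lower was 4.80 points. Of all tested probes, 16.6% were higher and 10.4% lower in that fit.

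Among named clones that passed no test, AK140265 turned to -0.021, -0.074 and -0.13 with quantile, no and spike-in scaling, AK203298 to -0.0026, -0.022 and -0.078, and AK139658 to -0.044, -0.067 and -0.12, and to -0.022 within row 2. AK012052 turned to -0.045 with spike-in scaling. The dim probe of AK035229 turned to 0.070 with normexp and 0.24 within row 2, and lay between -0.27 and 0.048 with 1 array left out. Of all other values of named probes under an alternative, 662 kept direction and side of the threshold and 51 kept the direction only, 32 of these within row 2. Signals near background limit the clones below a level of about -5, where 3 arrays a group measured few of them in both groups.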
